A study of Mus musculus with 2 samples.

Results

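Of the 5 gene names searched, Prm1, Prm2, Prm3, Tnp1 and Tnp2, the arrays of this series carried measurement probes for 3. Prm1 had 3 probes and Tnp1 and Tnp2 had 1 each, so 5 of the 42404 measurement probes stood for the protamine and transition protein genes, and 3 of 23135 gene names. No measurement probe of the files used here bore the name Prm2 or Prm3, and these genes were not analysed here. The members were chosen by gene name, but with earlier results of these data known, in which the log2 ratio of Prm1 in embryo DNA already stood among the highest. The ratios below are therefore a description, and no test was made of them.

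Protamines are small, arginine-rich proteins that take the place of histones on the DNA of elongating spermatids and pack it tightly into the sperm head. The transition proteins hold the DNA in the step between, after most histones have left and before protamines are laid down. These genes are transcribed in haploid male germ cells. Here it was not their transcripts but the DNA at the genes that was measured, so the values compare how much of a probe's sequence was bound from each of a pair of genomic DNA preparations.

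The assay was comparative genomic hybridisation on 2-colour oligonucleotide arrays, in which test and control DNA are labelled with different dyes and bind to the same spots in competition. The series asks what a sire with a single functional copy of Dnmt3L, a cofactor of the germ-cell DNA methyltransferases, passes on to its offspring. On the adult array, tail DNA from wild-type (Dnmt3L+/+) adult female offspring of a Dnmt3L+/- sire was labelled with Cy3, and tail DNA from an unrelated C57BL/6 colony with Cy5. On the embryo array, whole-embryo DNA at E10.5 from wild-type offspring of a Dnmt3L+/- sire was labelled with Cy5, and whole-embryo DNA from a control cross with Cy3. All DNA was labelled Dnmt3L+/+ and female, so the altered allele itself is, per the labels, in none of the DNAs. The adult animals are labelled C57BL/6, while for the embryos the title gives a cross of FVB/NJ with C57BL/6 and the description C57BL/6 alone, which leaves their strain unclear. How many animals gave the DNA of a channel is not stated in the labels.

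Each stage had 1 array, so no difference between offspring and control has a replicate check, and the number of arrays limits the precision. Background-subtracted signals were lower on the adult array, with medians of 40.8 (offspring) and 56.3 (control), than on the embryo array, with 189 and 105. All member probes were spotted once. For the 308 probes with 3 spots, the SD between spots of the log2 ratio had a median of 0.19 (adult) and 0.065 (embryo). The X chromosome had a median log2 ratio of −0.86 on both arrays although both DNAs of each array were labelled female, and none of the members lies on X. Across 40482 autosomal probes the ratios of the arrays, which share probes but have the dyes of offspring and control exchanged, correlated at −0.25 (Pearson) and −0.31 (Spearman). All ratios are offspring over control on the log2 scale, centred on the median of the array.

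Prm1, which encodes protamine 1, had a higher signal from offspring than from control DNA at all 3 of its probes on the embryo array, with a median log2 ratio of 1.32 (SD over probes 0.19, n = 3), a 2.50-fold ratio. In adult DNA the same probes had a median of −0.030 (SD 0.21, n = 3). Tnp1, the gene of transition protein 1, had −0.15 on both arrays, and Tnp2, the gene of transition protein 2, had −0.71 in adult and 0.10 in embryo DNA. A ratio as high as that of Prm1 in embryo DNA was thus seen neither at the transition protein probes nor at Prm1 itself in adult DNA.

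The 3 Prm1 probes are described in the order of their positions, which are those of the deposited files, on an unplaced contig of chromosome 16 (the files name no genome build). The first covered bases 13482660 to 13482718. On the embryo array it had a processed signal of 1788 from offspring and 566 from control DNA, a log2 ratio of 1.65 with an error of 0.30. Such errors are those of the scanner software for a single spot, turned to the log2 scale, and rest in part on a preset proportional error. In adult DNA its signals were nearly equal, at 1238 and 1245, with a ratio of −0.030 ± 0.22 (software error).

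The second Prm1 probe, from 13482719 to 13482770, follows the first without a gap. Its embryo signals were 2344 from offspring and 933 from control, a log2 ratio of 1.32 ± 0.21 (software error). In adult DNA they were 2758 and 2561, and the ratio was 0.085 ± 0.25. This probe was 2.50-fold brighter from offspring on the embryo array and 1.06-fold on the adult array.

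The third Prm1 probe, from 13482780 to 13482833, had embryo signals of 4817 from offspring and 1937 from control, with a log2 ratio of 1.31 ± 0.25 (software error). Its adult ratio was the lowest of the gene, −0.32 ± 0.18, from signals of 2080 and 2558. Within Prm1 the embryo ratios spanned 0.34 and the adult ratios 0.41, while the software errors of the 6 values ran from 0.18 to 0.30. The highest adult value of the gene was 0.085 and the lowest embryo value 1.31, with 1 array per stage. How many other genes were separated in this way was not counted. Probe by probe, embryo minus adult was 1.68, 1.24 and 1.63, with combined software errors of 0.37, 0.33 and 0.30.

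**Figure D1:**
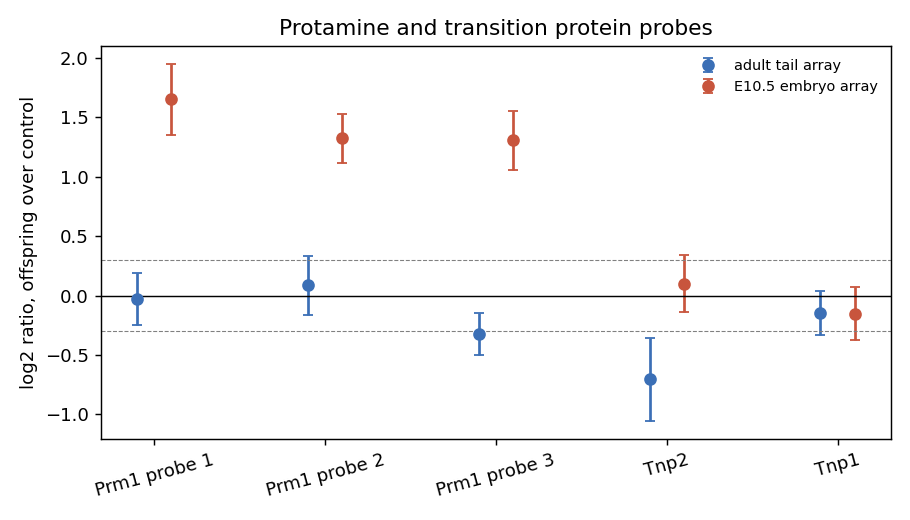
Log2 ratio of offspring over control for each member probe on the adult (blue) and embryo (red) array, 1 array per stage. Bars are the scanner software's error of a single spot and dashed lines lie at 0.3 and −0.3. The 3 Prm1 probes lie between 1.31 and 1.65 on the embryo array and between −0.32 and 0.085 on the adult array.

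All 3 Prm1 probes together span 174 bases, so they read a single short stretch of DNA and are not separate measurements of a longer region. The mouse assembly table (GRCm38.p6) gives Prm1 a length of 492 bases. Among 1888 genes with 3 probes well above background on the embryo array, the median span was 26.7 kb, and 79 spanned less than 1 kb. Prm1 was the only run of 3 consecutive, non-overlapping probes outside X within 200 bases on these arrays. Whether the probes lie in an exon or in the intron cannot be said from the files.

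Among all 42370 probes of the embryo array, 121 had a higher ratio than the first Prm1 probe, 240 than the second and 248 than the third. Among 42396 probes of the adult array 23138, 15631 and 36131 were higher, in the same order, so there the Prm1 probes lay in the body of the distribution. Of 2944 genes with at least 3 probes well above background, Prm1 ranked 3 by median on the embryo array, behind 2410104I19Rik (now Puf60) and AK015109. Both of those had a probe below 0, at −1.14 and −0.46, and Prm1 ranked 1 by its lowest probe. It was the only gene of the 2944 whose probes were all at or above 1. These places follow from the values for which Prm1 was noticed and carry no test. They also set Prm1, with 3 probes within 174 bases, beside genes with wider spacing (median span 26.7 kb for genes with 3 probes).

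Counted by probe, 3 of the 5 member probes were at or above 0.3 on the embryo array, all of Prm1, where 12 percent of all probes were, and the same 3 were at or above 1, where 1.15 percent of all probes were. None of the 5 was at or below −0.3 there (17.1 percent of all probes). In adult DNA none was at or above 0.3, against 12.5 percent of all probes, and 2 were at or below −0.3, the Tnp2 probe and the third Prm1 probe, where 15.9 percent of all probes were. With 5 probes, of which 3 are adjacent, these shares say little beyond the single values.

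**Figure D2:**
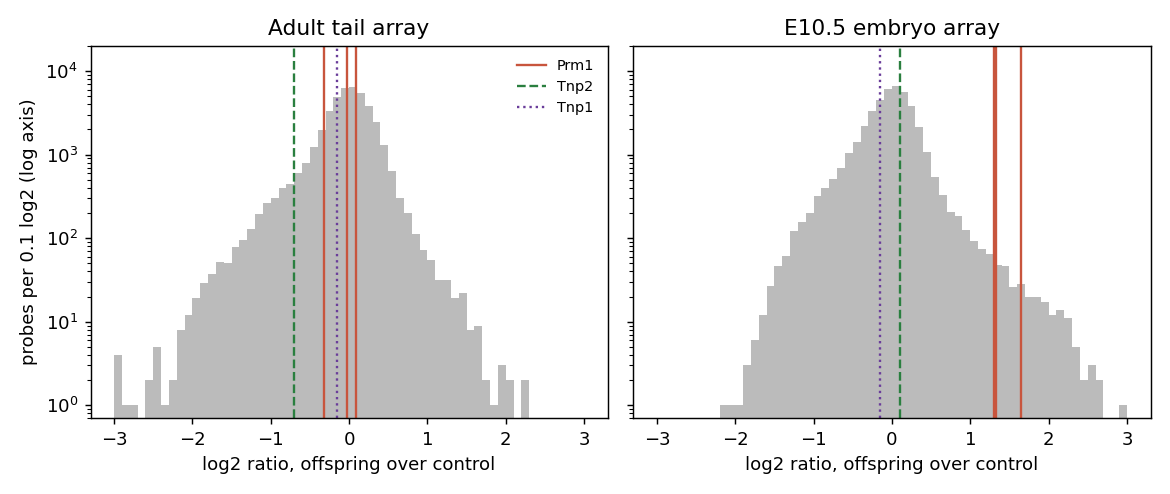
Number of measurement probes per 0.1 log2 of the ratio of offspring over control (grey bars, log axis, values beyond 3 or −3 in the end bins) on the adult (left) and embryo (right) array. Vertical lines mark the member probes, red for Prm1, dashed green for Tnp2 and dotted purple for Tnp1. The Prm1 lines lie in the upper tail of the embryo array, where 486 of 42370 probes were at or above 1, and in the body of the adult array.

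The ratio of Prm1 on the embryo array can be set out channel by channel, each signal taken on the log2 scale over the median of its own channel. The first Prm1 probe stood at 0.41 in adult offspring, 0.43 in adult control, −0.83 in embryo control and 0.86 in embryo offspring. The second stood at 1.56, 1.47, −0.11 and 1.25 in the same order. Embryo control was the lowest of the 4 channels at both of these probes, below its channel median. The third probe had 1.15, 1.47, 0.95 and 2.29, and there embryo control was again lowest but embryo offspring stood clearly highest.

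The dyes were exchanged between the arrays, so the channels of equal dye are adult offspring with embryo control (Cy3) and adult control with embryo offspring (Cy5). In Cy3 the embryo control lay below the adult offspring by log2 differences of −1.24, −1.67 and −0.21 at the 3 Prm1 probes. In Cy5 the embryo offspring differed from the adult control by 0.43, −0.22 and 0.82. Over all 42362 probes measured on both arrays these differences had SDs of 0.78 in Cy3 and 0.70 in Cy5. At the second probe the Cy3 difference lay at percentile 0.65 of all probes and at the first at percentile 1.65, while the Cy5 differences lay between percentiles 38.3 and 86.2. The first pair of probes thus differed between the arrays mainly in the channel of the embryo control, and the third mainly in that of the embryo offspring. The arrays were normalized separately and differ in tissue, so these levels are a description of single hybridisations.

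**Figure D3:**
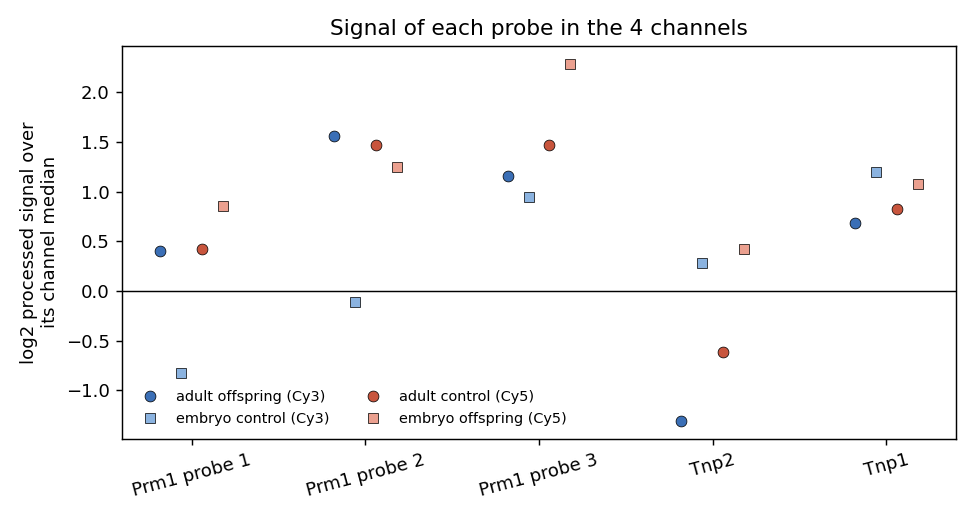
Processed signal of each member probe on the log2 scale over the median of its channel, in the 4 channels of both arrays (circles adult, squares embryo, blue shades Cy3, red shades Cy5). At the first 2 Prm1 probes the embryo control is the lowest channel, at −0.83 and −0.11, and at the third the embryo offspring is the highest, at 2.29.

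On the left the nearest probe, listed 1.05 kb away, did not have the high embryo ratio of Prm1. An unnamed probe at that distance from Prm1 (13481549 to 13481607) had 0.15 at E10.5 and 0.0062 in adult DNA, and another 2.24 kb away (13480362 to 13480421) had 0.30 and −0.19. The embryo ratio of Prm1 was thus more than 1 log2 unit above that of its nearest measured neighbours. On the right the next probe, ENSMUST00000067950, is listed 742 kb away with −0.38 at E10.5 and 0.62 in adult DNA. How far the high ratio extends on that side is thus not known.

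Distances along an unplaced contig are not a map, since it joins pieces whose order was open when the array was designed. In the files Tnp2 lies 3602 kb from Prm1, while in the mouse assembly table Socs1, Tnp2, Prm3, Prm2, Prm1 and Rmi2 follow one another on chromosome 16. The table was used for the order of names alone. The other 22 probes listed on that contig had a median of 0.019 at E10.5 (SD 0.30, from −0.84 to 0.36) and 0.10 in adult DNA (SD 0.28, from −0.31 to 0.66). No other probe of the contig reached 1 on either array.

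Close probes elsewhere in the genome give a measure of how much adjacent ratios run together. Without Prm1, 166 pairs of consecutive probes outside X with at most 200 bases between them correlated at 0.40 (Pearson, Spearman 0.29) at E10.5, and 167 such pairs at 0.097 (Spearman 0.053) in adult DNA. At gaps from 1000 to 3000 bases the Pearson correlation was 0.031 over 2170 pairs at E10.5 and 0.030 over 2172 pairs in adult DNA. Such pairs share their array and, when close, lie in the same stretch of sequence without overlapping. Base composition could not be computed because the probe sequences are not in the files. Its part in the Prm1 ratio was not tested.

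Tnp2 has a single probe (9880330 to 9880379, 50 bases) on the same contig. Its adult signals lay close to background, with a processed signal of 377 from offspring and 606 from control, from background-subtracted values of 14.4 and 29.5. The log2 ratio was −0.71 ± 0.35 (software error), at percentile 4.99 of all probes, the lowest of the 5 on that array. At E10.5 the signals were 1317 and 1223 and the ratio 0.10 ± 0.24. Embryo minus adult was 0.81 with a combined software error of 0.42.

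The adult ratio of Tnp2 depended on the treatment of background. With normexp background correction it was 0.043 and without background subtraction 0.094, in the other direction. The raw mean signals were 99.7 from offspring and 88.4 from control, over local backgrounds of 29 and 45. Its nearest probe, 4.11 kb away, belongs to Socs1, a suppressor of cytokine signalling, and had 0.54 ± 0.48 (software error) in adult DNA and 0.010 ± 0.33 at E10.5. These adjacent probes thus lay on opposite sides of 0 in adult DNA and near 0 at E10.5. Both adult values rest on background-subtracted signals of at most 29.5.

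Tnp1 is the only member placed on an assembled chromosome (chromosome 1, 73316784 to 73316839), and its probe gave nearly the same ratio on both arrays. The adult signals were 1499 from offspring and 1638 from control (−0.15 ± 0.19, software error), and the embryo signals 2084 and 2304 (−0.15 ± 0.22). Offspring was the lower channel on both arrays, though by less than the software error of either spot. Under normexp correction the embryo value was 0.051 and without background subtraction 0.053. Taken as Cy5 over Cy3, the sign differed between the arrays, at 0.15 and −0.15.

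The 20 probes around Tnp1 had medians of 0.028 in adult DNA (SD 0.28) and −0.0036 at E10.5 (SD 0.24). Of these, 2 (adult) and 1 (embryo) were at or above 0.3, while 1 and 3 were at or below −0.3. The nearest, LOC433321, 51.1 kb away, had 0.38 in adult DNA and −0.27 at E10.5. They included Igfbp2 and Igfbp5, which encode binding proteins of insulin-like growth factors. The nearest Igfbp5 probe, 145 kb away, had −0.01 and −0.03. The ratio of Tnp1 lay inside the spread of these neighbours on both arrays.

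The genes nearest to Prm1 in the pair of array medians were sought among 11068 genes with at least 2 probes well above background on both arrays, by the Euclidean distance of the 2 values. They were Tesc (−0.095 adult, 1.31 embryo), Hmgn3 (−0.11, 1.21), Gsn (0.023, 1.16), Ptprs (−0.016, 1.13) and Gdap1l1 (−0.17, 1.16), at distances from 0.066 to 0.22. Hmgn3 encodes a nucleosome-binding protein and Gsn the actin-severing protein gelsolin. Each of the 5 rests on 2 probes that disagree on the embryo array, from −0.065 to 2.39 for Gsn and from 0.48 to 2.14 for Tesc. Their SDs over probes ran from 0.89 to 1.74, against 0.19 for the 3 probes of Prm1, which are far closer together. Among the 1888 genes with 3 probes, the median SD on the embryo array was 0.23, and 795 had a lower SD than Prm1.

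Other genes of late spermatogenesis were read from 3 lists, each gene by the median of its probes well above background. The first held 22 genes that act when histones leave spermatid chromatin, of which 16 were measured. Its median was 0.00029 (adult) and −0.00050 (embryo), against 4.1e-05 and −0.0016 over all genes. In adult DNA 1 of 16 was at or above 0.3 (8.56 percent of all genes) and 0 at or below −0.3 (12.5 percent). At E10.5 1 was at or above 0.3 (9.86 percent of all genes) and 2 at or below −0.3 (14 percent).

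Among its members with the largest ratios, Htatip (now Kat5), the histone acetyltransferase TIP60, had −0.29 in adult DNA and 0.49 at E10.5. Its partner in the NuA4 complex, Epc1, had 0.37 (from probes at −0.025 and 0.76) and −0.15 (from −0.44 and 0.13), and Morf4l1, also of that complex, 0.22 and −0.060. H3f3b, which encodes histone H3.3, had 0.034 and −0.87. Cdyl, a chromodomain protein, had 0.26 (from probes at −0.0028 and 0.52) and −0.38 (from −0.88 and 0.12), and the chaperone gene Hspa2 −0.0070 and 0.28. None of these was as high as Prm1 at E10.5, and Htatip, H3f3b and Hspa2 rest on 1 probe each.

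The second list held 20 genes that act on the transcription, storage or translation of spermatid messages, of which 17 were measured. Its median was 0.15 (adult) and −0.12 (embryo). With the dyes exchanged between the arrays, both medians mean relatively more Cy3 than Cy5 signal. Whether the dye had a part was not tested. In adult DNA 4 of 17 (23.5 percent) were at or above 0.3, against 8.56 percent of all genes, and 0 at or below −0.3, against 12.5 percent. At E10.5 0 were at or above 0.3 (9.86 percent of all genes) and 3 (17.6 percent) at or below −0.3 (14 percent of all genes). Piwil1, a partner of small RNAs in spermatids, had 0.53 and 0.24, and Tdrd6, a tudor protein of germ granules, 0.42 and −0.54. Kif17 and Fhl5, which act together on the transcription factor CREM, had 0.42 and −0.21, and 0.33 and −0.15. The 2 probes of Fhl5 disagreed, with 0.093 and 0.57 in adult DNA and −0.51 and 0.22 at E10.5, and those of Kif17 had an SD of 0.33 in adult DNA and 0.14 at E10.5. Tarbp2, an RNA-binding protein that acts on protamine messages, had 0.21 and −0.70, and Boll 0.055 and −0.34. Piwil1, Tarbp2 and Boll rest on 1 probe each.

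The third list held 31 autosomal genes of spermatids and sperm, of which 27 were measured, with medians of 0.023 (adult) and 0.027 (embryo). In adult DNA 2 of 27 (7.41 percent) were at or above 0.3, against 8.56 percent of all genes, and 3 (11.1 percent) at or below −0.3, against 12.5 percent. At E10.5 2 (7.41 percent) were at or above 0.3, against 9.86 percent of all genes, and 2 (7.41 percent) at or below −0.3, against 14 percent. Odf1, of the outer dense fibres of the sperm tail, had 1.35 at E10.5 and 0.023 in adult DNA from 1 probe, and was the only gene of the 3 lists with an embryo value as high as Prm1. At or above 1 on the embryo array were 0.999 percent of all genes. Gapds, Oaz3, Catsper1, Dkkl1 and Acrv1, given next, also rest on 1 probe each. Gapds (now Gapdhs), the glycolytic enzyme of sperm, had −0.22 in adult DNA and 0.50 at E10.5. Oaz3, an antizyme of spermatids, had −0.96 and 0.16, and Odf2 −0.64 (2 probes, SD 0.16) and 0.046. Catsper1, of the sperm calcium channel, had 0.34 and −0.028, Dkkl1 0.35 and −0.13, Catsper2 0.051 and −0.34 (from probes at −0.80 and 0.11), and Acrv1, of the acrosome, −0.067 and −0.39.

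**Figure D4:**
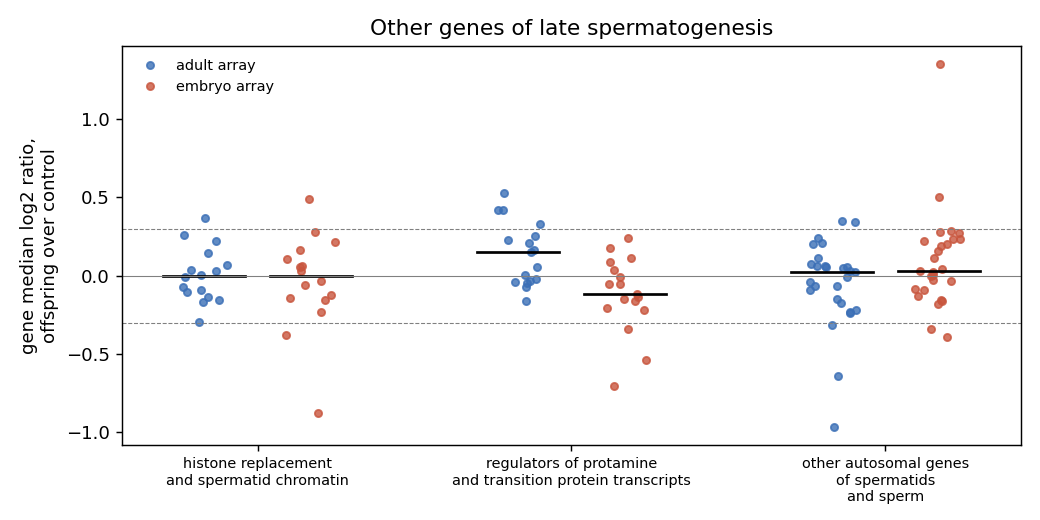
Gene median log2 ratio of offspring over control for the measured genes of 3 lists of late spermatogenesis (1 point a gene, black bars the list medians), on the adult (blue) and embryo (red) array, with dashed lines at 0.3 and −0.3. List medians lie between −0.12 and 0.15, and the single embryo point at 1.35 is Odf1.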

How the data were processed

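Per the file headers, the authors' spot intensity values came from Agilent Feature Extraction 9.1.1.1 (9.1 per the submitters' processing notes), which subtracted background, detrended, gave dim spots surrogate values and applied linear dye normalization. The deposited log10 ratio is Cy5 over Cy3 of those signals, and the series matrix matched it to within 0.0005. Probe sequences and genome build are not given in the files. Of 44050 spots, 1030 control spots and those with an outlier mark (8 adult, 34 embryo) were left out. The ratio is log2 of processed signals with the dyes as labelled, averaged over the spots of a probe and centred on the median of the array. All 5 member probes were well above background on both arrays, with no surrogate, outlier or saturation mark.

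No test was made, as each stage has 1 array. Members and lists were chosen with earlier results of these data known. Named are the member probes, up to 10 neighbours a side (in part), up to 4 genes per list and array with the largest absolute medians, and the 5 genes nearest to Prm1; 2410104I19Rik and AK015109 were added after their values were seen. The ratio step was tested on simulated data. Tools were Python 3.11.15, numpy 2.4.6, pandas 2.3.3, statsmodels 0.14.6, matplotlib 3.10.9, R 4.3.3 and limma 3.58.1. Alternatives were other signals, centrings, an intensity loess (span 0.3), the marks on spots and thresholds.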

Additional observations from a re-analysis of the deposited data

Results flagged for a closer look

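For Prm1 and for Tnp2, the median ratio lay below 0 in adult DNA and above 0 in embryo DNA. The second Prm1 probe, at 0.085, was above 0 in adult DNA as well. Taken as Cy5 over Cy3, the medians of both genes lay above 0 on both arrays. The median log2 ratio of Prm1 was −0.030 in adult and 1.32 in embryo DNA, a difference of 1.35, and that of Tnp2 −0.71 and 0.10, a difference of 0.81. Neither difference was tested, since each stage has 1 array. The adult Prm1 value is smaller than the software error of its spots, so its sign carries little weight. The adult Tnp2 value reversed to 0.043 under normexp and 0.094 without background subtraction. The embryo Tnp2 value is smaller than its software error of 0.24, so the signs of Tnp2 carry little weight too.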

How the results depend on the processing

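The embryo ratio of Prm1 ranged from 1.19 (no background subtraction) to 1.57 (normexp) over 10 alternatives, and its adult ratio from −0.29 (no background subtraction) to −0.0077. All 3 Prm1 probes stayed at or above 0.3, and at or above 1, on the embryo array. Not every alternative could move them much, as they carry no outlier mark and were well above background. Keeping marked spots, keeping only spots well above background and the series matrix could act on them almost only through the centring. These gave embryo medians of 1.32, 1.32 and 1.33. The median over member probes lay between −0.22 and −0.030 in adult DNA and between 0.85 (mean over probes) and 1.43 at E10.5. As 3 of the 5 member probes are of Prm1, the main embryo median of 1.31 is that of a Prm1 probe. It does not describe Tnp1 and Tnp2, which had −0.15 and 0.10 at E10.5. The adult ratio of Tnp2 reversed to 0.043 under normexp and 0.094 without background subtraction, and was −0.57 on signals before dye normalization. Against 2 adult probes at or below −0.3, there were 0 under normexp, 0 without background subtraction, 1 before dye normalization, 1 with the deposited series matrix, and 0 at a threshold of −1. The series matrix was used without further centring, and there the third Prm1 probe had −0.299 instead of −0.321, just past the threshold. The stricter threshold lowers the count by construction, and for the remaining settings the cause was not tested. The embryo ratio of Tnp1 ranged from −0.21 to 0.053. A correction for probe base composition was not run, since the files give no probe sequences. Tnp2 in adult DNA rests on background-subtracted signals of 14.4 and 29.5. No paired analysis was possible because each stage has 1 array.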
